A study of Mus musculus with 4 samples.

Results

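The cells described here are the 2089 cells of the busulfan library (B0) in which Insl3, a peptide hormone made by Leydig cells, reached 40 or more UMIs per 10000 and in which no UMI of the macrophage genes C1qa, C1qb or C1qc was found. They were chosen by their measured Insl3 and C1q values alone. They made up 44.8% of the 4659 B0 cells (exact binomial 95% interval 43.4 to 46.3%) and came from 27060 cells in the whole single-cell data set. The remaining 2570 B0 cells served as the comparison. Testis cells of ICR mice were studied with droplet 3′ single-cell RNA sequencing, in which each UMI stands for 1 captured RNA molecule. The males were 3 weeks old at the start and fell into 4 groups. The A0 group received water and the A10 group alginate oligosaccharides (AOS) at 10 mg/kg by gavage, with no busulfan. The B0 group was given busulfan at 40 mg/kg once, followed by water, and the BA10 group was given the same busulfan dose followed by AOS at 10 mg/kg. Sections of the study differ on how long the gavage lasted. Each group was 1 library pooled from 6 mice, so no comparison below has a replicate and none was tested. Intervals cover counting error only.

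Leydig cells lie between the seminiferous tubules and make testosterone under the control of luteinising hormone. Cholesterol enters the mitochondrion with the help of Star, is cut to pregnenolone by Cyp11a1, and then passes through 3-beta-hydroxysteroid dehydrogenases, Cyp17a1 and Hsd17b3. Busulfan is an alkylating drug that kills dividing germ cells. Leydig cells of the grown testis rarely divide, but these mice were 3 weeks old at busulfan, and Leydig cell division at that age was not measured here. The study describes the collected cells as cells of the tubules.

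The label Leydig was set beside marker genes. Leaving out Insl3, all 10 other Leydig markers were seen in at least 5% of the Insl3 cells, and together they took 3.57% of the UMIs of those cells. They summed to 35690 CPM (UMIs per 1000000) in the Insl3 cells and 830 CPM in the cells with Insl3 under 10. Insl3 itself and the absence of C1q were set by the rule and are given only as a description. Cyp17a1, Hsd17b3, Prlr, Sult1e1 and Lcn2 were named together with the rule, so they are no independent check of the label. The remaining markers, Star, Cyp11a1, Hsd3b1, Hsd3b6 and Lhcgr, had log2 ratios of level of 4.59 to 5.42 over the cells with Insl3 under 10. Per cell, the level of Insl3 ran from 40.4 through a median of 117 to 267 per 10000 UMIs. Cyp17a1, the 17-alpha-hydroxylase, had a UMI in 99.8% of the Insl3 cells, with a median of 67.0 and a highest value of 250 per 10000. Lcn2, lipocalin 2, had the highest level of any gene in these cells, with a median of 148 and a highest value of 665 per 10000.

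The Insl3 level, which the rule used, was lowest in number of cells between 10 and 20 per 10000, with 12 B0 cells, and the limit of 40 lay on the lower flank of the Insl3-rich cells, with 31 cells from 30 to 40 and 82 from 40 to 50. Insl3 was under 10 per 10000 in 1353 cells, between 10 and 40 in 71 cells and 40 or more in 3235 cells. Among cells without C1q, the nearest values outside the limit were 39.7, 39.7 and 39.96 and the nearest inside were 40.4, 40.8 and 41.4. The rule on C1q removed 1146 of the 3235 cells (35.4%), of which 656 had 1 C1q UMI, 154 had 2 and 336 had 3 or more. These removed cells therefore made up 44.6% of the comparison cells, so that Insl3-rich cells stood on both sides of the comparison with all other B0 cells. Ratios against the 1353 cells with Insl3 under 10 are given as well.

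**Figure D1:**
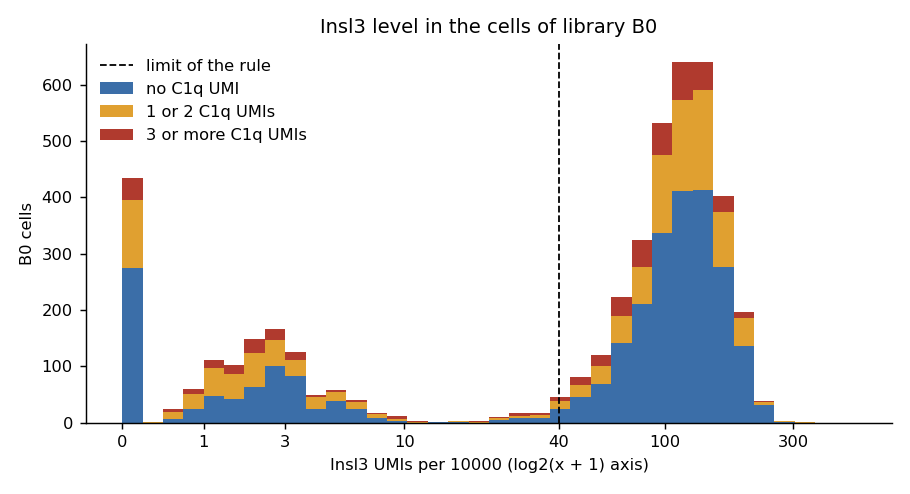
Number of B0 cells by Insl3 level (UMIs per 10000, log2(x + 1) axis), stacked by the number of C1q UMIs, with the limit of the rule as a dashed line. The 1353 cells under 10 and the 3235 cells at 40 or more form 2 humps with 71 cells from 10 to 40, the limit of 40 lying on the lower flank of the upper hump, and cells with C1q UMIs occur in both.

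No cell of A0 and none of A10 reached the Insl3 limit. Taking 3 cells of the total as the limit that a count of 0 allows, the 0 of 8941 cells in A0 allows a share of up to 0.0336% and the 0 of 9682 cells in A10 one of up to 0.0310%; the highest Insl3 level was 21.8 per 10000 in A0 and 39.1 in A10. In BA10, 61 cells reached it and 45 of these had no C1q UMI (1.19% of 3778 cells). The libraries did not keep cells of the same depth. The shallowest cell had 2985 UMIs in B0, 7687 in A0, 6716 in A10 and 9013 in BA10. Of the 2089 Insl3 cells of B0, 20 had as many UMIs as the shallowest A0 cell, 56 as many as the shallowest A10 cell and 8 as many as the shallowest BA10 cell. At or above those depths B0 held 581, 692 and 448 cells in all, in the same order. The part of depth in the difference in the number of Insl3 cells between the libraries was not tested. Fewer than 60 cell barcodes of B0 recurred in any other library, at 56 with A0, 56 with A10 and 31 with BA10. The Insl3 cells held a median of 3997 UMIs and 1797 genes, against 5592 UMIs in the cells with Insl3 under 10.

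Levels are CPM, the UMIs of a gene summed over a set of cells and scaled to 1000000; because only the 3′ end of each RNA was counted, they were not divided by gene length. Ratios are log2 ratios with 1 CPM added to each level. Genes seen in at least 5% of the cells of either set were compared, and a gene is called higher or lower where the levels differed by 2-fold or more. A gene seen in 5% of the cells of only 1 set entered through the set where it was commoner, so the counts for lists below describe the genes that passed and not whole lists. Against all other B0 cells, 1231 of 10005 genes were higher in the Insl3 cells (12.3%) and 3046 were lower (30.4%), and with each cell given the same weight the split was 249 higher and 2850 lower. Against the cells with Insl3 under 10, 2410 of 10762 genes were higher (22.4%) and 4024 were lower (37.4%). These shares stand beside every list count below in the same contrast. The median log2 ratio over all genes compared was -0.16 in the first contrast and -0.32 in the second.

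The enzymes of testosterone synthesis were present as a complete path. Of 14 genes of steroid hormone synthesis compared, 13 were higher and none lower against all other cells, with a median log2 ratio of 1.57. All 14 were higher against the cells with Insl3 under 10, with a median of 4.67. Star, the cholesterol carrier, stood at 1331 CPM in the Insl3 cells and 54.3 CPM in the cells with Insl3 under 10. Cyp11a1, the side-chain cleavage enzyme, stood at 2972 against 108 CPM. Cyp17a1 stood at 7229 against 142 CPM, a log2 ratio of 5.66 (95% interval 5.596 to 5.74). Hsd17b3, which makes testosterone from androstenedione, stood at 1411 against 27.3 CPM, a log2 ratio of 5.64. Against all other cells the same genes had log2 ratios of 1.63 to 1.69.

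Electron donors and partners of these enzymes were also higher, with smaller ratios. Fdx1, the ferredoxin that feeds Cyp11a1, had a log2 ratio of 2.67 and its reductase Fdxr one of 3.66 over the cells with Insl3 under 10. Por, which passes electrons to Cyp17a1, had a ratio of 2.78 and Cyb5a, which favours its lyase step, one of 1.83. Cyb5a was the gene of the list that stayed under 2-fold against all other cells, at 0.97. Akr1cl, an aldo-keto reductase, reached 5123 CPM and had a UMI in every Insl3 cell.

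Cyp21a1, the 21-hydroxylase known from the adrenal gland, stood at 93.6 CPM and had a UMI in 16.6% of the Insl3 cells. Its level in the cells with Insl3 under 10 was 2.53 CPM. Steroid enzymes of other paths were nearly or wholly missing. Srd5a1, a 5-alpha-reductase, stood at 7.13 CPM and Akr1c14, the 3-alpha-hydroxysteroid dehydrogenase, at 3.85 CPM. Srd5a2 and Cyp19a1 (aromatase) had no UMI among 8835935 in the Insl3 cells, and Hsd11b1 stood at 0.905 CPM.

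RNA of these genes was also found at low levels in B0 cells that should lack it. Germ-marked cells, defined as 433 B0 cells with UMIs of at least 4 of 11 spermatocyte genes, Insl3 under 40 and no C1q UMI, held the 10 Leydig markers other than Insl3 at 1.79 to 3.73% of their level in the Insl3 cells. With every cell thinned to 2985 UMIs, Cyp17a1 had a UMI in 35.6% of the germ-marked cells and in 99.7% of the Insl3 cells; median depths before thinning were 7268 and 3997 UMIs. For Cyp21a1 the thinned shares were 0.231% and 14.1%. Fdx1 and Cyb5a stood higher in the germ-marked cells, at 17.2% and 18.5% of their level in the Insl3 cells.

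**Figure D2:**
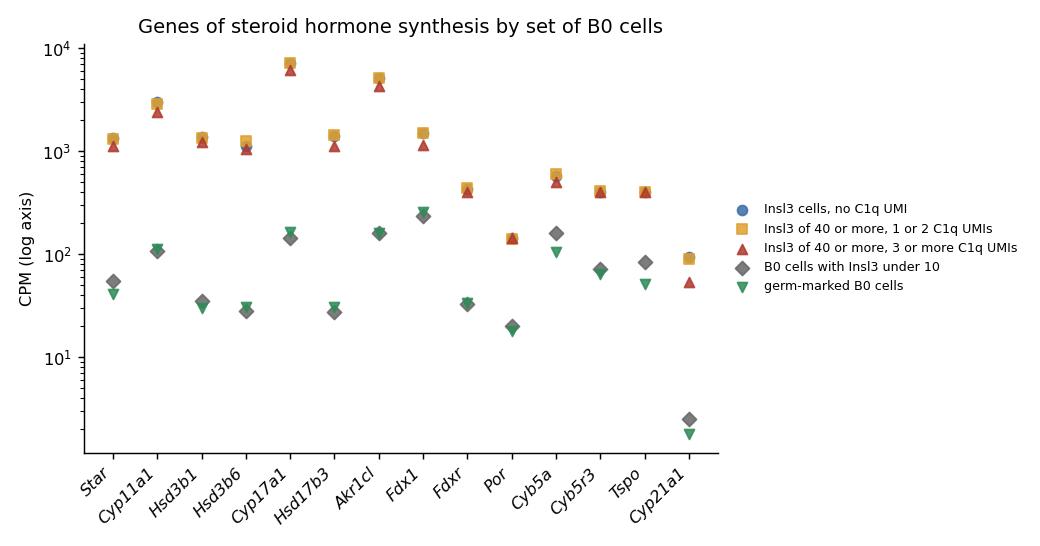
Levels (CPM, log axis) of 14 genes of steroid hormone synthesis in the Insl3 cells, in B0 cells of Insl3 of 40 or more with 1 or 2 and with 3 or more C1q UMIs, in B0 cells with Insl3 under 10 and in germ-marked B0 cells. Cyp17a1 was at 7229 CPM in the Insl3 cells and at 142 CPM in the cells with Insl3 under 10; the 3 sets of Insl3-rich cells lie close together, Cyp21a1 lying apart at 53.3 CPM with 3 or more C1q UMIs.

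Cholesterol, the starting material, was covered by a broad set of higher genes. Of 32 genes of cholesterol synthesis and supply, 24 were higher and 1 was lower against all other cells (median log2 ratio 1.28), and 28 were higher and 1 lower against the cells with Insl3 under 10 (median 2.73). Msmo1, a methylsterol oxidase, stood at 654 against 28.2 CPM and Fdps, which makes farnesyl diphosphate, at 937 against 74.6 CPM. Hmgcs1, which acts early in the synthesis, had a log2 ratio of 3.79.

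Genes that bring cholesterol into the cell or store it were higher as well. Scarb1, the HDL receptor, had a log2 ratio of 2.24 over the cells with Insl3 under 10. Soat1, which esterifies cholesterol for storage, had a ratio of 2.66 and stood at 382 CPM. Insig2, which holds back the sterol sensor Scap, was the gene that was lower, at 54.1 against 161 CPM. Idi1 had a ratio of -0.10 and Fdft1 one of 0.44.

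Of 12 genes of fatty acid synthesis 11 were higher against the cells with Insl3 under 10, with a median log2 ratio of 3.82, and 9 were higher against all other cells; none was lower in either contrast. Scd2 and Scd1, desaturases that make monounsaturated fatty acids, stood at 2488 and 343 CPM against 102 and 9.30 CPM. Fads1, Fads2 and Fads6, further desaturases or desaturase relatives, had ratios of 4.66, 4.58 and 4.96. Me1, the malic enzyme that supplies NADPH, stood at 1743 CPM, whereas Acss2 had a ratio of -0.41.

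Receptors for the hormones that act on Leydig cells were among the genes with the highest ratios. Lhcgr, the receptor for luteinising hormone, stood at 200 against 3.70 CPM (log2 ratio 5.42), and Prlr, the prolactin receptor, at 1345 against 20.3 CPM (5.98). Of 10 receptor genes compared, 8 were higher and none lower in either contrast. For all genes compared, 12.3% were higher against all other cells and 22.4% against the cells with Insl3 under 10. Esr1, the oestrogen receptor alpha, had a ratio of 4.801 and Thrb, a thyroid hormone receptor, one of 3.92. Igf1r, a receptor for insulin-like growth factor, had a ratio of 2.97. Nr3c1 and Thra stayed under 2-fold, at 0.60 and 0.67. The receptors of other testis cells were at the floor: Fshr, the Sertoli receptor for follicle stimulating hormone, stood at 0.792 CPM and Rxfp2, the receptor of Insl3 itself, at 0.113 CPM.

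Among the transcription factors listed as Leydig regulators, 4 of 9 were higher and 1 lower against all other cells. The shares for all genes were 12.3% higher and 30.4% lower. Nr5a1 (SF-1), which drives steroid enzyme genes, stood at 202 against 15.2 CPM in the cells with Insl3 under 10 (log2 ratio 3.65). Nr2f2 (COUP-TFII) had a ratio of 3.18, Cebpb one of 2.69 and Gata4 one of 2.27. Gata6, Nr0b1 and Nr4a1 had ratios of 0.20, 0.18 and 0.16. Nr5a2 had no UMI in the Insl3 cells. Creb3l4, the gene that was lower, stood at 3.28 against 97.6 CPM and at 68.9 CPM in germ-marked cells.

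In a list of 13 genes of the adult and of the fetal or precursor stage, 7 passed the filter and were higher. Their median log2 ratio was 5.30 over the cells with Insl3 under 10, a contrast in which 22.4% of all genes were higher. All 7 were seen in 5% of the Insl3 cells, and most of the fetal or precursor genes did not pass. Hsd17b3, Sult1e1 and Prlr were named together with the rule, so the count is no independent check of the stage. Sult1e1, the oestrogen sulfotransferase, stood at 2272 against 44.2 CPM, Ptgds, a prostaglandin D synthase, at 6397 against 280 CPM, and Vcam1, an adhesion protein, at 639 against 21.03 CPM. Dlk1, Nes, Thy1 and Thbs2, known from stem, precursor or fetal Leydig cells, stood at 1.13, 0.113, 0.792 and 0.340 CPM in the Insl3 cells and at 3.61, 5.33, 2.08 and 0.451 CPM in the cells with Insl3 under 10. Mc2r, the ACTH receptor, had no UMI in either set. Pdgfra, listed with the precursors, passed the filter and stood at 33.3 against 8.49 CPM.

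Leaving out Insl3, the listed secreted factors took 2.73% of the UMIs of the Insl3 cells. Of 10 compared 5 were higher and 1 lower against all other cells, and of 12 compared 7 were higher and 1 lower against the cells with Insl3 under 10. Lcn2 stood at 16440 against 368 CPM and Apoc1, an apolipoprotein, at 7509 against 273 CPM. Cxcl12, a chemokine, had a log2 ratio of 2.97, Csf1, the macrophage growth factor, one of 2.65 and Kitl, the ligand of Kit, one of 2.11. Kit, placed in the spermatogonia list but also known from Leydig cells, stood at 178 against 10.7 CPM. Pdgfa was lower, at 13.1 against 32.2 CPM, and Inha, the inhibin alpha chain, differed little, at 192 against 213 CPM.

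Detoxification genes were prominent in level. Gstm1, a glutathione transferase, stood at 11360 CPM, below only Lcn2 and Insl3, and Gstm2 stood at 3735 CPM. Against all other cells 16 of 25 genes of this list were higher and 1 lower (median log2 ratio 1.20). Against the cells with Insl3 under 10, 19 were higher and 1 lower (median 2.51). For all genes compared, 12.3% were higher and 30.4% lower in the first contrast, and 22.4% and 37.4% in the second. Aldh1a1, a retinal dehydrogenase, stood at 7394 against 208 CPM. Gsta3, which has a steroid isomerase activity, stood at 1179 against 35.2 CPM, and Ephx1, an epoxide hydrolase, at 891 against 23.6 CPM. Gstm5 was the gene that was lower, at 539 against 2726 CPM, and it stood at 535% of its Insl3-cell level in germ-marked cells. The last 300 bases of the Gstm1 and Gstm2 transcripts were 49.6% identical.

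The antioxidant list showed 10 of 25 genes higher and none lower against all other cells, and 18 higher and none lower against the cells with Insl3 under 10. The shares for all genes were 12.3% higher and 30.4% lower in the first contrast, and 22.4% and 37.4% in the second. Nqo1, a quinone reductase, had a ratio of 4.26, Cat (catalase) one of 3.39 and Gpx1, a glutathione peroxidase, one of 2.88. Prdx1, a peroxiredoxin, stood at 2047 against 435 CPM. Gclm, which helps make glutathione, had a ratio of -0.98 and Gpx4 one of -0.44. Mt1, a metallothionein, stood at 5705 against 3084 CPM, under 2-fold.

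Genes that answer DNA damage through p53 were listed together with genes of apoptosis. Cdkn1a (p21) stood at 217 against 41.4 CPM and Ccng1 at 97.4 against 13.3 CPM. Trp53inp1 had a log2 ratio of 2.95. Against the cells with Insl3 under 10, 9 of 16 genes of the list were higher and 2 lower. Against all other cells 4 of 14 were higher and 2 lower. For all genes compared, 22.4% were higher and 37.4% lower in the first contrast, and 12.3% and 30.4% in the second. The lower genes were Mdm2, which degrades p53, at 44.4 against 121 CPM, and Bcl2l1, a survival factor, at 23.3 against 89.6 CPM. Trp53 itself had a ratio of 0.43. The groups without busulfan held no Insl3 cells to set beside these values.

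Of 15 cell division genes 12 were lower and none higher in either contrast, with medians of -1.83 and -2.20. Of all genes, 30.4% were lower against all other cells and 37.4% against the cells with Insl3 under 10. Only 5 of the 15 were seen in 5% of the Insl3 cells, and the others entered through the comparison cells. Mki67, the proliferation marker, stood at 4.98 against 26.5 CPM, and Ccnb1, a mitotic cyclin, at 7.58 against 202 CPM. Ccnd2, the G1 cyclin, was the highest of the list at 41.1 CPM, with a ratio of 0.29. The cells with Insl3 under 10 also held 2743 CPM of spermatocyte markers, and the part of germ cells in these ratios was not tested.

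Mitochondrial respiration and translation differed less than steroid synthesis. The 91 oxidative phosphorylation genes took 6.97% of the UMIs of the Insl3 cells against 3.83% in the cells with Insl3 under 10. Of 89 compared, 35 were higher and 8 lower in that contrast (median log2 ratio 0.75). Cox6a1 and Uqcr10, subunits of respiratory complexes IV and III, were among the 20 genes of highest level, at 3984 and 3931 CPM. Cytosolic ribosomal proteins took 12.3% of UMIs against 9.32%, with 8 of 78 higher and 2 lower. Over all genes in that contrast, 22.4% were higher and 37.4% lower. The 2 lower genes were Rpl10l at -5.05 and Rpl39l at -4.66, and the highest ratios were those of Rpl10, Rpl39, Rps4x and Rpl36a, at 2.73 to 1.98. Among the lower respiration genes were Cox7b2 at -5.41 and Cox8c at -4.91. The part of germ cells in these ratios was not tested.

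**Figure D3:**
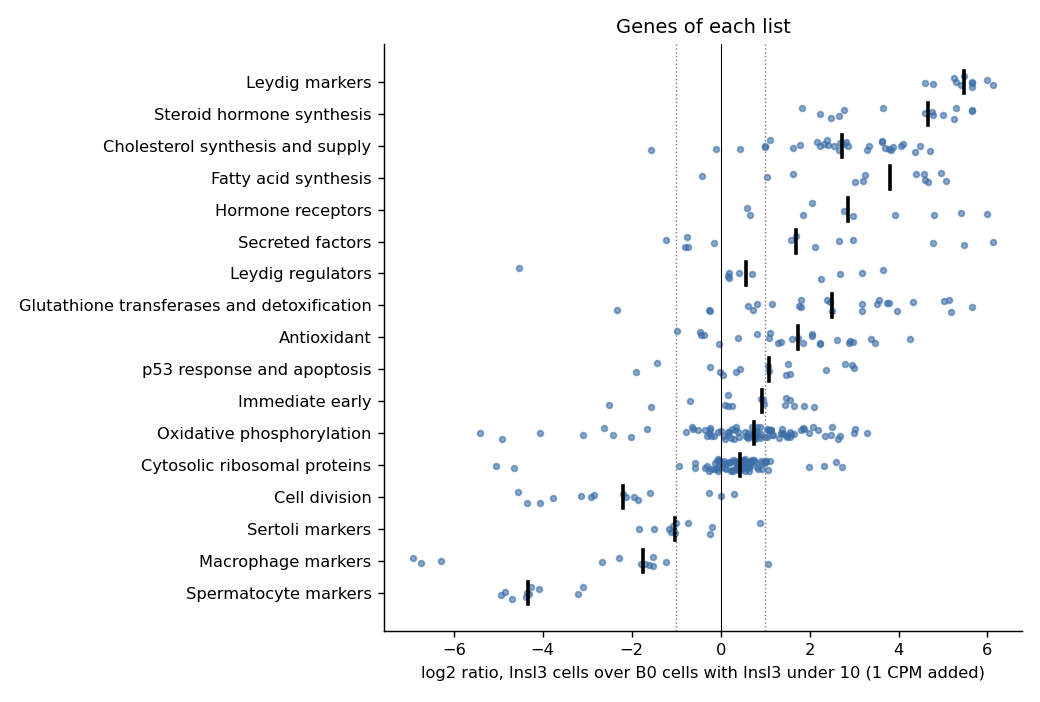
Log2 ratios (1 CPM added) of the genes of 17 lists, Insl3 cells over B0 cells with Insl3 under 10; each point is a gene, the black bar is the median of the list and dotted lines mark 2-fold. Leydig markers, Insl3 among them, have a median of 5.48, steroid synthesis one of 4.67 and spermatocyte markers one of -4.34.

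Markers of the other testis cells were present at low levels with differing patterns. Spermatocyte markers summed to 120 CPM in the Insl3 cells and 2743 CPM in the cells with Insl3 under 10, and all 10 compared were lower, of which only 2 were seen in 5% of the Insl3 cells, the others entering through the comparison cells. Of 9 spermatogonia markers 7 were lower and 2 higher in the same contrast, Kit being one of the higher. Only 3 of the 9 were seen in 5% of the Insl3 cells. Of all genes in that contrast, 37.4% were lower and 22.4% higher. Spermatid markers summed to 16.6 CPM, endothelial markers to 22.9 CPM with none in 5% of the cells, and lymphoid markers to 3.40 CPM. Markers of peritubular myoid cells summed to 109 CPM against 127 CPM, of interstitial mesenchyme to 313 against 304 CPM and of erythroid cells to 405 against 844 CPM in the cells with Insl3 under 10. Of 5 mesenchyme markers 3 were higher and none lower, with log2 ratios of 2.14 for Col3a1, 1.85 for Pdgfra and 1.24 for Col1a2, and Dcn and Col1a1 stood at -0.57 and -0.81. The defining macrophage genes C1qa, C1qb and C1qc were at 0 by the rule, which also placed every cell with C1q among the comparison cells. The other 11 macrophage markers summed to 164 CPM against 695 CPM in all other cells. Of 10 of them compared 9 were lower, beside 30.4% of all genes, and the rule bears on this count. In the cells with Insl3 under 10 they summed to 503 CPM, and of 9 compared 8 were lower and 1 was higher, Cd14 at a log2 ratio of 1.07. Only 4 of these 9 were seen in 5% of the Insl3 cells, the others entering through the comparison cells, which kept their cells with C1q in this contrast too. Though lower against all other cells, Adgre1, Csf1r, Lyz2 and Tyrobp had small positive ratios when the comparison cells had no C1q UMI either.

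Of 11 Sertoli markers compared, 6 were lower and none higher against the cells with Insl3 under 10, and 2 were lower against all other cells. Over all genes compared, 37.4% and 30.4% were lower in these contrasts. They summed to 3882 CPM in the Insl3 cells, 4342 CPM in all other cells and 4611 CPM in the cells with Insl3 under 10. The largest part of the sum in the Insl3 cells came from Clu, clusterin, at 1997 CPM, against 361 CPM in the germ-marked cells, and without Clu the sums were 1885, 3002 and 3522 CPM. Cst12, a cystatin of Sertoli cells, stood at 452 CPM in the Insl3 cells and 569 CPM in the germ-marked cells, and Aard at 351 and 415 CPM. The defining genes Sox9, Wt1, Amh and Fshr stood at 13.6, 10.1, 0.679 and 0.792 CPM. The part of Sertoli RNA in the results was not tested.

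The cells removed for C1q were compared with the Insl3 cells in a split chosen after the data were seen. The 810 cells with 1 or 2 C1q UMIs were close to the Insl3 cells: of 7548 genes none was 2-fold higher in the Insl3 cells (0.0%) and 9 were 2-fold lower (0.119%). Those 9 were C1qa, C1qb and C1qc, which the split fixes, and Cx3cr1, Csf1r, Laptm5, Pf4, Rgs7bp and F13a1, of which Cx3cr1 and Csf1r are receptors of macrophages. Cyp17a1 stood at 7209 CPM in those cells and Lcn2 at 16050 CPM.

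The 336 cells with 3 or more C1q UMIs held markers of both cell types. Of 8139 genes 542 were lower in the Insl3 cells (6.66%) and 14 were higher (0.172%). Lyz2, a macrophage lysozyme, stood at 462 CPM in those cells and 11.2 CPM in the Insl3 cells, and Cd74, the invariant chain of MHC class II, at 684 and 49.2 CPM. Insl3 stood at 10760 CPM in the same cells. Of 16 immediate early genes 13 were lower in the Insl3 cells, with Fos at 178 against 499 CPM. Median depths were 3997 UMIs in the Insl3 cells, 4172 in the cells with 1 or 2 C1q UMIs and 4166 in those with 3 or more. Whether the last were droplets with more than 1 cell was not tested, and Scrublet, a doublet caller, marked 4 of the 4659 B0 cells and none of the cells with Insl3 of 40 or more and C1q.

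The 20 largest ratios over all other cells included genes of low level. Pdk4, which turns glucose away from the citrate cycle, led at 21.1 against 4.73 CPM (log2 ratio 1.94). Cth, which makes cysteine, stood at 32.0 against 8.67 CPM and Gnmt, the glycine methyltransferase, at 93.5 against 27.4 CPM. Ces1d, a carboxylesterase that cleaves lipid esters, stood at 457 against 137 CPM. Further genes among the 20 were Cyp4f15, Ugt3a2, Nat8f6, Adhfe1 and Scd1, and the homeobox gene Hoxc8 at 31.8 against 8.61 CPM. Sult1e1, Lhcgr, Lcn2 and Cyp21a1 were also among them. Of the 20, only Sult1e1, Ces1d, Lhcgr and Lcn2 were also among the 20 largest ratios over the cells with Insl3 under 10. Insl3 itself had a log2 ratio of 1.71 over all other cells, which include Insl3-rich cells. By level, Fabp3, a fatty acid binding protein, was among the 20 genes of highest level at 10550 against 368 CPM in the cells with Insl3 under 10, and Cst3, a cystatin, stood at 6022 CPM. Leaving aside the 3 C1q genes, which the rule fixed, the other 7 of the 10 smallest ratios were those of Tcp10a, Tcp10b, Tcp10c, Ccdc38, Ccdc39, Ccdc83 and Pabpc2, with log2 ratios of -5.55 to -5.12.

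Single Insl3 cells differed in which 3-beta-hydroxysteroid dehydrogenase they held. Hsd3b1 stood at 1364 CPM and Hsd3b6, the form of the adult Leydig cell, at 1127 CPM. With each of the 2089 cells thinned to 2985 UMIs, 793 cells had UMIs of Hsd3b1 and none of Hsd3b6 (38.0%), 279 had Hsd3b6 only (13.4%), 908 had both (43.5%) and 109 had neither (5.22%). The share of germ-marked cells with a UMI was 9.007% for Hsd3b1 and 7.62% for Hsd3b6. Spearman's rho between the 2 genes was -0.31 over the 2089 cells of this 1 library. Of 742 cells with 5 or more Hsd3b1 UMIs, 422 had no Hsd3b6, and of 661 cells with 5 or more Hsd3b6 UMIs, 177 had no Hsd3b1. Both genes reached 5 UMIs in 125 cells. The median number of Hsd3b6 UMIs was 4 where Hsd3b1 was 0 and 0 where Hsd3b1 was 5 or more. For comparison, Cyp17a1 and Cyp11a1 had a rho of 0.39 over the same cells.

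**Figure D4:**
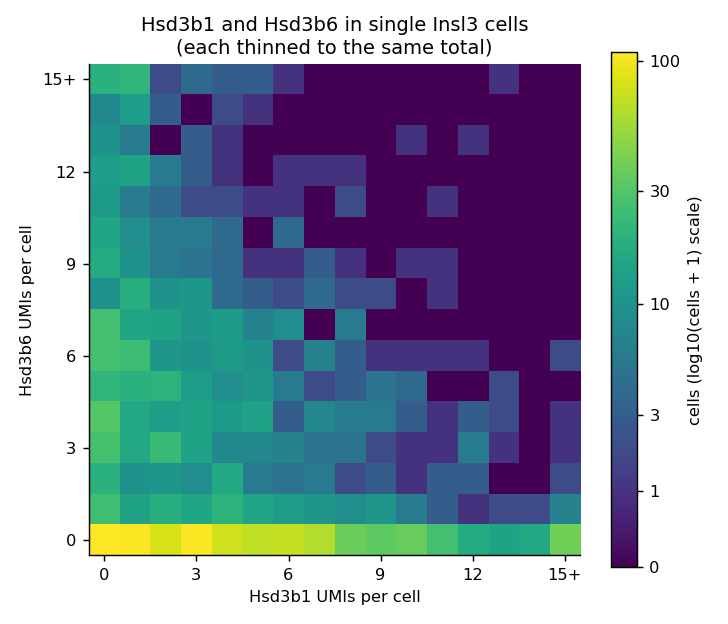
Number of Insl3 cells (log10(cells + 1) colour scale) by their UMIs of Hsd3b1 (horizontal axis) and Hsd3b6 (vertical axis) after thinning to 2985 UMIs per cell; counts of 15 or more share the last row and column. Cells gather along both axes, with 422 cells at 5 or more Hsd3b1 UMIs and no Hsd3b6, and 125 cells at 5 or more of both.

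The 2 genes lie 37750 bases apart on the minus strand of chromosome 3 of the mm10 build (GENCODE M21), Hsd3b1 at chr3:98852194-98859794 and Hsd3b6 at chr3:98805504-98814443. The last 300 bases of their transcripts, where 3′ reads fall, were 65.6% identical with a longest shared run of 17 bases. The 250 bases before each RefSeq start are given on the minus strand, 5′ to 3′ (GRCm38.p6). Those of Hsd3b1 and Hsd3b6 are printed because the UMIs of these 2 neighbouring genes were negatively related over cells. The window of Sult1e1 is printed because it alone among the Leydig markers with a window held the exact letters AAGGTCA. Other spellings of the Nr5a1 site were not searched. Capitals mark a motif on either strand, AGATAA in the first 2, which is bound by factors of the Gata family, and AAGGTCA in the other, which is bound by Nr5a1. The motifs do not overlap each other.
Hsd3b1 at chr3:98859795-98860044: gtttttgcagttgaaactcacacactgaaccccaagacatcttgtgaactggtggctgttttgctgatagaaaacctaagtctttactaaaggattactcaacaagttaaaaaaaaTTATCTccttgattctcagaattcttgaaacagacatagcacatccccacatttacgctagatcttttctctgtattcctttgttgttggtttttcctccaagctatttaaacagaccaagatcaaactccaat
Hsd3b6 at chr3:98814444-98814693: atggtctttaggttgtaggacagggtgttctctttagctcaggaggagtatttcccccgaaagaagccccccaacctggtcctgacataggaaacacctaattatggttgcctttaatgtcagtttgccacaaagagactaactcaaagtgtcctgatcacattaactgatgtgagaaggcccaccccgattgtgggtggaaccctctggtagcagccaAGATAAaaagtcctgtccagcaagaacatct
Sult1e1 at chr5:87591612-87591861: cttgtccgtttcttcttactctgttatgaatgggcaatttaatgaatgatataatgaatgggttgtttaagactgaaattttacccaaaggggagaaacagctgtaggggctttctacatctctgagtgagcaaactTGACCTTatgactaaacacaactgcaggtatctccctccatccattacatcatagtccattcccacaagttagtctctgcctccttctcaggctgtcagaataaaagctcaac

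The AGATAA motif began 134 bases before the Hsd3b1 start, on the opposite strand, and 31 bases before the Hsd3b6 start. It occurred in 9.99% of the 32851 promoter windows of the same length, and AAGGTCA in 4.08%. Of the 11 Leydig markers 9 had a window in the RefSeq table; 2 of these held AGATAA and 1 held AAGGTCA. These are matches of letters only.

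The 422 cells with 5 or more Hsd3b1 UMIs and no Hsd3b6 were set against the 177 cells of the opposite kind, on thinned counts and as a split chosen after the data were seen. In the first, 142 of 6682 genes were 2-fold higher (2.13%) and 151 were lower (2.26%), Hsd3b1 and Hsd3b6 themselves being fixed by the split. Star and Hsd17b3 were close between the sets, whereas Cyp11a1 was higher in the first. Star stood at 1349 and 1285 CPM (log2 ratio 0.07, interval -0.06 to 0.20) and Hsd17b3 at 1360 and 1332 CPM (0.03, -0.10 to 0.16). Cyp11a1 stood at 3360 and 2432 CPM (0.47, 0.38 to 0.56), Sult1e1 at 2759 and 1896 CPM, and Agt, angiotensinogen, at 2659 and 1565 CPM. Genes that were higher in the Hsd3b1 cells, named after their values were seen, included Cyp21a1 at 157 against 43.5 CPM. Others were Tbx3, a transcription factor, at 55.6 against 11.4 CPM, and Mia at 276 against 85.2 CPM. Haemoglobin genes were higher too, but 20 of the Insl3 cells held 79.15% of all Hba-a1 UMIs. The part of these few cells was not tested. The Hsd3b6 cells were higher in C3, a complement protein, at 112 against 38.1 CPM, in Dcn (decorin) at 314 against 129 CPM, and in Gsta2 at 125 against 52.4 CPM. Median depths before thinning were 4025 and 3875 UMIs.

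Immediate early genes, which answer a stimulus within minutes, were high in part of the Insl3 cells. Fos had a UMI in 23.2% of the thinned Insl3 cells and in 4.62% of the germ-marked cells, and over cells it went with Egr1 (Spearman's rho 0.51), Jun (0.47), Junb (0.45) and Cxcl1 (0.43) over the 2089 cells. The 183 cells with 3 or more Fos UMIs were set against the 1604 with none, a split chosen after the data were seen. The list of 16 immediate early genes held 6 higher and 2 lower genes against the cells with Insl3 under 10. Against all other cells it held 0 higher and 3 lower of 15. For all genes compared, 22.4% were higher and 37.4% lower in the first contrast, and 12.3% and 30.4% in the second. In the Fos cells, of 6652 genes 158 were higher (2.38%) and 114 lower (1.71%), Fos itself being fixed by the split. Besides Fosb at 357 against 10.0 CPM, Egr1 at 566 against 34.5 CPM and Zfp36 at 284 against 15.9 CPM, the Fos cells held more RNA of the chemokines Cxcl10 and Cxcl1, named after their values were seen, at 98.9 against 0.835 and 330 against 12.7 CPM. Of further genes named after their values were seen, Socs3, a brake on cytokine signals, stood at 192 against 9.40 CPM, Nfkbiz at 108 against 6.48 CPM and the interferon response factor Irf1 at 126 against 13.2 CPM. H2-Aa, a gene of MHC class II also named after its values were seen, stood at 42.1 against 13.2 CPM. The part of macrophage RNA in the Fos cells was not tested.

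Steroid genes were not shifted alike in the Fos cells. Sult1e1 stood at 1274 against 2470 CPM (log2 ratio -0.96), Cyp17a1 at 5232 against 7652 CPM (-0.55) and Cyp11a1 at 2167 against 3098 CPM (-0.52). Star stood at 1400 against 1313 CPM, with an interval of the log2 ratio of -0.02 to 0.20, and Prlr at 1452 against 1341 CPM. Depth moved with Fos: the Fos cells held a median of 3486 UMIs against 4133. Over 4 equal groups of the Insl3 cells by depth, from the shallowest, Fos stood at 350, 250, 150 and 55.2 CPM, while Insl3 stood at 11510, 11930, 12410 and 12310 CPM. The part of depth in this pattern was not tested.

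Ptgds had a variance 14.6 times its mean over the thinned cells; this ratio, the Fano factor, is 1 for pure counting error and grows with the mean of an unevenly held gene. The 531 cells with 26 or more Ptgds UMIs were set against the 566 cells with 7 or fewer, a split chosen after the data were seen, with median depths before thinning of 4141 and 3756 UMIs. In the first, 37 of 6528 genes were higher (0.567%) and 82 lower (1.26%), Ptgds itself being fixed by the split. Of genes named after their values were seen, Agt stood at 3057 against 1236 CPM and Cyp21a1 at 153 against 41.4 CPM in the Ptgds-rich cells, and the heart-type myosins Myh7 and Myh6 at 59.9 against 16.6 and 33.4 against 5.33 CPM. In the other direction, Aldh1a1 stood at 5330 against 9167 CPM, Ly6a at 16.4 against 157 CPM, Egr1 at 41.6 against 197 CPM and Cxcl1 at 15.1 against 113 CPM. The part of depth in these values was not tested. Cyp17a1 differed by a log2 ratio of 0.28 and Star by -0.33.

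Cyp21a1 was held by 295 of the thinned Insl3 cells, and 5% of the cells (104) held 68.0% of its UMIs. Cells with a Cyp21a1 UMI held more C4b and C4a, complement genes named after their values were seen, at 185 against 49.9 CPM (log2 ratio 1.87, interval 1.60 to 2.18) and 29.5 against 7.10 CPM. Of 6540 genes 20 were higher (0.306%) and 30 lower (0.459%), Cyp21a1 itself being fixed by the split. Hbb-b1, a haemoglobin gene also named after its values were seen, was among the higher, at 704 against 312 CPM. However, 20 of the Insl3 cells held 64.6% of all Hbb-b1 UMIs, and the part of these few cells was not tested. C4a (chr17:34809092-34823464) and Cyp21a1 (chr17:34801348-34804561) lie 4530 bases apart on the minus strand of mm10, and C4b lies 57465 bases from Cyp21a1. Whether reads of one gene were counted for another was not tested. Mt3, a metallothionein, stood at 225 against 579 CPM in the same cells, whereas Cyp17a1 differed by a log2 ratio of -0.11.

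Some genes were held by few of the Insl3 cells at high levels. Ly6d, a membrane protein known from B cell precursors, had a UMI in 11.4% of the thinned cells, and 104 cells held 88.4% of its UMIs; its share was 0.924% in germ-marked cells. Mia had a UMI in 12.7% of the cells and 2.54% of the germ-marked cells. Ly6k had one in 15.6% of the Insl3 cells and 49.4% of the germ-marked cells, so the 2 Ly6 genes differed in where else they occurred. Their rho over the Insl3 cells was -0.03. Haemoglobin UMIs were found in 49.1% of the Insl3 cells, but 15 cells with 10 or more held 70.6% of them, and Hba-a1 had the highest Fano factor, 125.

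Abundant products ranged from even to less even. The 104 cells with most UMIs of a gene held 9.14% of those of Akr1cl, 11.6% of Cyp17a1, 12.2% of Lcn2, 15.4% of Apoc1, 17.8% of Ptgds and 17.9% of Cst3. The share was 8.82% for Insl3, whose low end the rule cut off. The rank correlation was 0.03 between Lcn2 and Cyp17a1, 0.06 between Cyp17a1 and Insl3 and 0.25 between Lcn2 and Insl3. The kallikreins Klk1b21, Klk1b24 and Klk1b27, named here after their values were seen, stood at 737, 726 and 607 CPM with rho of 0.52 to 0.59 between pairs. The last 300 bases of their transcripts were 89.8 to 94.7% identical, so the counts of the 3 genes are uncertain.

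**Figure D5:**
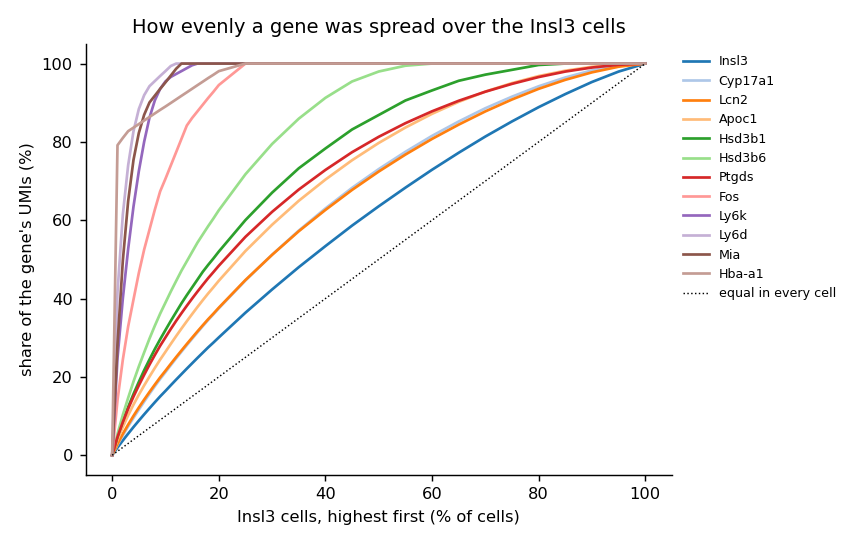
Share of a gene's UMIs (vertical axis, %) held by the given share of Insl3 cells ordered from the highest (horizontal axis, %), for 12 genes after thinning to 2985 UMIs; the dotted line is an equal spread. The top 5% of cells held 11.6% of the UMIs of Cyp17a1 and 88.4% of those of Ly6d; the curve of Insl3 was set in part by the rule, which cut off its low end.

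The 45 BA10 cells that met the same rule are given side by side, since they had a median of 9772 UMIs against 3997. Their median Insl3 level was 59.0 per 10000 against 117 in the Insl3 cells of B0. Cyp17a1 stood at 7887 CPM in the BA10 cells and 7229 CPM in those of B0. Star stood at 1018 and 1331 CPM, Cyp11a1 at 4025 and 2972 CPM and Lcn2 at 17670 and 16440 CPM. Gstm1 stood at 18520 and 11360 CPM, Prlr at 714 and 1345 CPM, and Fos at 14.8 and 178 CPM. No comparison was drawn from these values.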

How the data were processed

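The authors made 1 table for the 4 libraries with Cell Ranger 2.2.0 on the mm10 build and Seurat. The deposited values are natural log values, ln(1 + UMIs per 10000), of 18419 genes in 27060 cells; per the study's methods, cells with few genes and genes in few cells were removed. The table held no mitochondrial genes. The UMI counts were recovered from the deposited values, 100% of which came out whole within 0.001. The number of cells in each library differed from the number that the methods set in Cell Ranger. B0 held 25323535 UMIs in all, and the other libraries held 91304225 (BA10), 143714595 (A10) and 150812974 (A0).

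Members were taken by the rule from B0 alone. UMIs were summed over sets of cells and compared as log2 ratios of CPM with 1 CPM added, with the exact interval for a ratio of 2 Poisson counts (95%); PCR copies are removed by UMIs, and the intervals do not cover differences between mice. Named genes are those of the lists, the 20 largest and 10 smallest ratios, the 20 highest levels and the 10 highest Fano factors among genes with a mean of at least 0.5 UMI. For variation among cells, each cell was thinned to 2985 UMIs. The members, lists and tests were chosen with earlier results of these data known. Scripts were tested on simulated data. Gene symbols of 17546 of the 18419 rows matched GENCODE M21. Doublets were called with Scrublet (scanpy 1.11.5, expected rate 6%) as an alternative. Python 3.11.15, numpy 2.4.6, scipy 1.17.1 and pandas 2.3.3 were used. Some genes of the lists are counted in them but not reported here by name.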

Additional observations from a re-analysis of the deposited data

How the results depend on the processing

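No paired analysis was possible because each group is 1 library. The number of Insl3 cells was 3235 with no rule on C1q, and within 1.5 times 2089 at Insl3 limits of 20 and 80 and without Scrublet doublets. The 1231 genes higher in the Insl3 cells became 653 with 10 CPM added, 249 with each cell given the same weight, 243 with all cells thinned to 2985 UMIs, 2398 with no rule on C1q, and 2410, 611 and 1964 against other cells with Insl3 under 10, with C1q UMIs and with none. The 3046 lower genes became 4650 with no filter on low values and 1961 after thinning. Of 197 listed or named genes called against all other cells, 173 had a ratio outside its counting interval with equal weights and 173 after thinning. None of them changed sign in these 2 settings. Of the lists, only steroid hormone synthesis was repeated in the alternatives. Against the cells with Insl3 of 40 or more and 1 or 2 C1q UMIs, an alternative chosen after seeing the data, the counts were 0 and 9. The median log2 ratio of steroid hormone synthesis, 1.57, became 1.49 with 10 CPM added and 1.38 with no filter. It was 1.06 with equal weights, 1.05 after thinning, 1.40 at a limit of 80, 1.73 after centring and 4.19 with no rule on C1q. Against other cells with Insl3 under 10, with C1q UMIs and with none it was 4.67, 1.15 and 4.07. The median stayed positive in all of these. Against cells with Insl3 of 40 or more it was 0.001 with 1 or 2 C1q UMIs and 0.21 with 3 or more. Ratios that were negative turned positive against other cells with no C1q UMI for Adgre1 (0.28), Csf1r (0.12), Lyz2 (0.03) and Tyrobp (0.036), and with no rule on C1q for Adgre1 (0.62), Atf3 (0.39), Csf1r (0.65), Cx3cr1 (0.35) and Mrc1 (0.47). The comparison cells change by construction in these alternatives, and with no rule on C1q the Insl3 cells themselves change too, to 3235. Other causes were not tested. Scrublet marked 4 of 4659 B0 cells, so doublets were in effect not removed. Depth limits every share of cells, and with 1 library a difference between groups of mice has no error.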
